A study of Daphnia magna with 48 samples.

Results

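Of the 48 samples of the series, 12 were *Daphnia magna* of the clones GB and HU taken after acute severe hypoxia (ASH), and they were chosen by their sample labels alone. The paper groups both clones under permanent habitats. GB came from a permanent lake and HU from a semi-permanent soda lake that dries up at times. Each clone is a single asexual line (GB-EL75-69 and HU-K-6), and all animals were females homogenised whole. Of the 12 samples, 6 (3 of each clone) had been reared in chronic mild intermittent hypoxia (CMIH), in which oxygen was brought down to 4 mg/L on a daily schedule. The other 6 (also 3 of each clone) had been reared in normoxia, in tanks aerated to 8 mg/L on the same schedule, with both levels drifting between adjustments. At the age of 25 days, all 12 were held for 12 h at 1 mg/L of oxygen, and each sample was a pool of 2 individuals. The 12 control samples of GB and HU, used where named, had the same rearing but no ASH, and the clones FI and IL, from intermittent ponds, gave 12 ASH samples of the same design. Per the paper's methods, RNAseq controls without ASH were kept unfed in flasks at either 8 or 4 mg/L. The rearing groups of the controls may therefore also differ in oxygen at sampling, which cannot be told apart from rearing history there. The question was whether the rearing history of these clones left a mark on their transcripts once the animals were in severe hypoxia.

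*Daphnia* carry hemoglobin dissolved in the hemolymph, made from di-domain globin chains, and raise its synthesis when oxygen is scarce, which turns pale animals red. Induction runs through hypoxia-inducible factor, which is degraded in the presence of oxygen after prolyl hydroxylation and otherwise binds hypoxia response elements near globin genes. Cytoglobins are globins that stay within cells.

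The values are reads per transcript from Nanopore cDNA libraries, given below as CPM (a sample's reads of the transcript divided by all its reads, times 1e6). The 12 ASH libraries held between 72574 and 381501 reads (median 267058.5 in GB and 88539.5 in HU), so that 3 reads stood for 7.86 to 41.3 CPM. Within HU the CMIH-reared libraries held 74255 to 102322 reads and the normoxia-reared ones 72574 to 200983. The replicates of a group differed by more than sampling noise in all 12 replicate pairs, with a chi-square per degree of freedom from 3.22 to 15.0. The TMM scaling factor, which corrects the totals for composition, was 0.760 to 0.800 in 5 of the 6 GB samples and 1.02 in the other, normoxia replicate 3, and 1.16 to 1.28 in HU. Since whole tanks received CMIH, the pools replicate animals and not tanks, and the p-values below measure the spread between pools only. The sequencing run and the library preparation go with the clone and cannot be told apart from it. In whole animals, fewer cells of a type and less RNA per cell cannot be told apart either. Few transcripts carry a description, and markers of tissues or cell types were not examined.

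The cytoglobin precursor 35F4.44, named as the other transcripts by contig and gene number, was the globin with the clearest difference by rearing. After ASH, its 3 normoxia-reared GB samples held 967, 938 and 669 CPM, and its 3 CMIH-reared GB samples held 2143, 1377 and 1925 CPM. In HU, the normoxia-reared samples held 289, 331 and 497 CPM and the CMIH-reared samples 596, 428 and 741 CPM. All CMIH-reared GB samples lay above all normoxia-reared ones, whereas in HU the groups overlapped in 1 sample of each. The mean difference in log2(CPM + 1), CMIH minus normoxia, was 1.07 in GB and 0.66 in HU (exact permutation test within clone over 400 relabellings, two-sided, p = 0.01, where the smallest possible p is 0.005). This was 1 of 4 such tests, and the p is not adjusted for that. In the model of all transcripts the log2 fold change was 0.89 ± 0.28 (standard error, SE), and with adjustment over all 6022 transcripts it did not pass (edgeR, adjusted p = 0.734).

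The hemoglobin precursor 11F0.55 had the opposite sign. It stood at 2839, 2098 and 693 CPM in normoxia-reared GB after ASH and at 990, 651 and 664 CPM in CMIH-reared GB. In HU it stood at 1149, 1915 and 1612 CPM after normoxia and at 928, 829 and 1535 CPM after CMIH. The highest values of each clone came from normoxia-reared samples, but the groups overlapped in both clones. The mean difference in log2(CPM + 1) was -0.81 (exact permutation test, p = 0.055), and the log2 fold change was -0.90 ± 0.36 (SE, edgeR adjusted p = 1.00, unadjusted p = 0.026).

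The second hemoglobin precursor, 3F39.53, and the second cytoglobin precursor, 0F43.50, showed no such separation. For 3F39.53, normoxia-reared GB held 23342, 18886 and 11487 CPM and CMIH-reared GB 15601, 8649 and 18594 CPM. HU held 1617, 3031 and 2381 CPM after normoxia and 2414, 1592 and 3124 CPM after CMIH. The groups overlapped in both clones, and the log2 fold change was -0.14 ± 0.30 (SE, edgeR adjusted p = 1.00). For 0F43.50 the samples ran from 0 to 135 CPM, with only 126 reads over the 12 samples, and the log2 fold change was 0.10 ± 0.63 (SE, edgeR adjusted p = 1.00).

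The same globins were compared in the 12 controls. The cytoglobin 35F4.44 held 194, 272 and 548 CPM in normoxia-reared GB controls and 911, 856 and 789 CPM in CMIH-reared ones, and in HU 22.9, 39.9 and 33.4 against 39.1, 245 and 121 CPM. Without ASH, the CMIH-reared samples thus lay above all normoxia-reared ones in GB, and 2 of 3 did so in HU, with a mean difference of 1.59 in log2(CPM + 1) (exact permutation test, p = 0.01). The difference between the log2 fold changes with and without ASH was -0.71 ± 0.55 (SE, edgeR unadjusted p = 0.203). The other 3 globins also had positive mean differences in controls, of 1.89 for 11F0.55, 0.82 for 3F39.53 and 2.20 for 0F43.50 (exact permutation tests, p = 0.17, 0.085 and 0.05). For 11F0.55 the controls held only 31 reads over 12 samples, 7 of them in normoxia-reared and 24 in CMIH-reared samples. For 0F43.50 they held only 3 reads in normoxia-reared and 17 in CMIH-reared samples. With log2(CPM + 10), the mean differences in controls fell to 0.84 for 11F0.55 and 0.96 for 0F43.50 (exact permutation tests, p = 0.265 and 0.05).

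**Figure D1:**
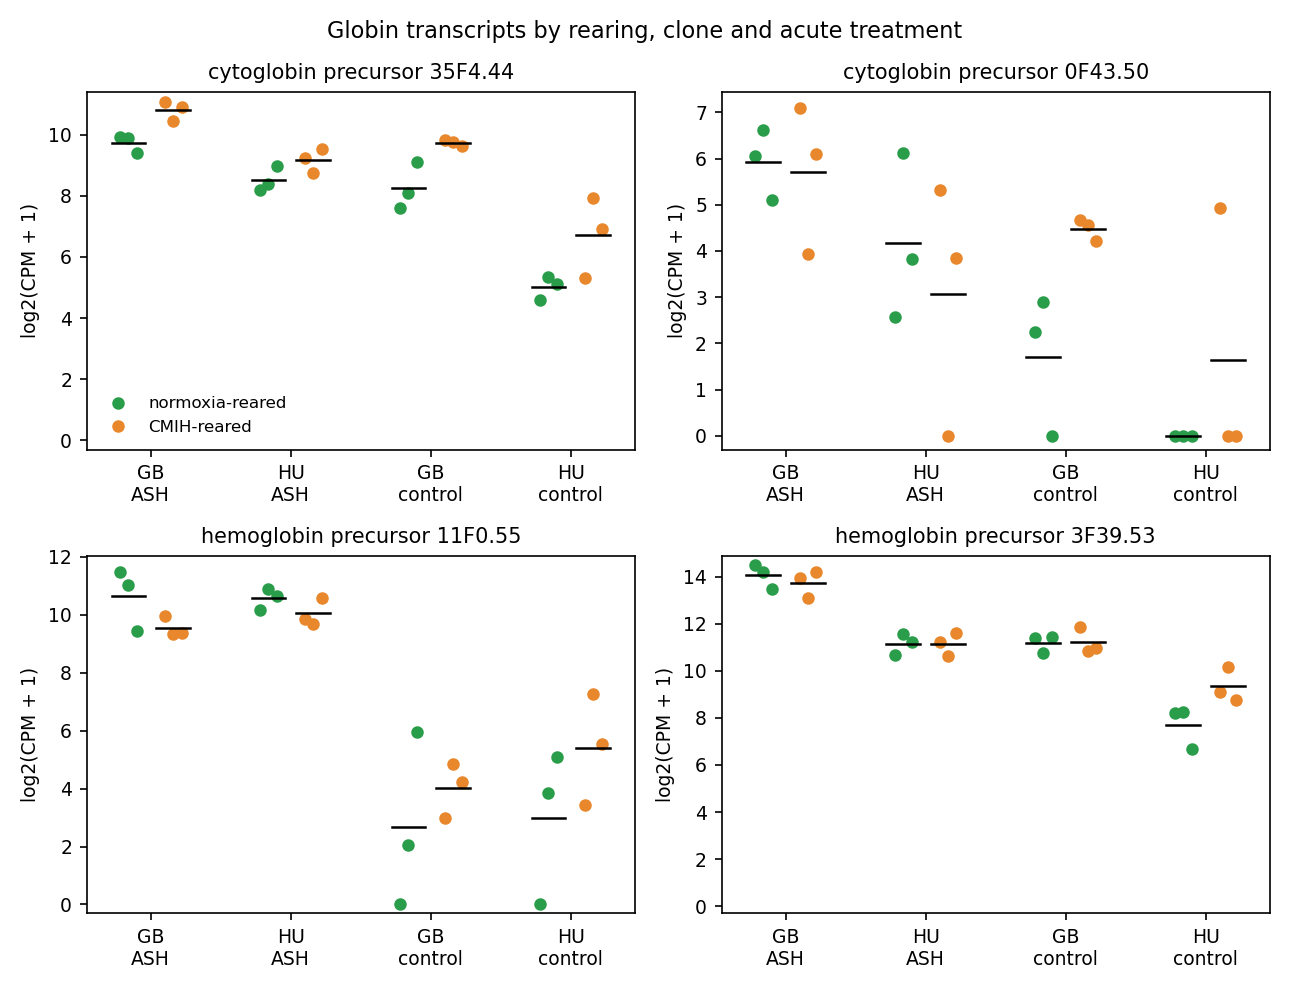
Level of the 4 globin transcripts in log2(CPM + 1) for each clone after ASH and in controls. Points are samples (3 in each group), black lines are group means, green is rearing in normoxia and orange rearing in CMIH. In 35F4.44 the orange means lie above the green ones in all 4 pairs, and in 11F0.55 they lie below after ASH in GB and HU and above in the controls.

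The response to ASH itself was then set out for each rearing condition, since a difference in the exposed animals can come with a different starting level. In normoxia-reared GB and HU, 6 of 6021 transcripts (0.0997%) passed an adjusted p of 0.05 in edgeR, all higher after ASH. In CMIH-reared GB and HU, 6 of 6027 (0.0996%) passed, again all higher, and 2 transcripts were in both lists. DESeq2 called 20 and 17 transcripts, of which 10 were in both. The edgeR counts rested on single libraries. After normoxia the count was 2 or 3 without GB ASH replicate 1 or 2, GB control replicate 7 or 8, HU ASH replicate 10 or HU control replicate 5. After CMIH it was 1 to 3 without GB ASH replicate 4 or 6, GB control replicate 10 or 11, HU ASH replicate 1 or 3 or HU control replicate 7 or 9, 0 without GB control replicate 12, and 9 without HU control replicate 8. The pair shared in edgeR were the hemoglobin precursors. The log2 fold change of 11F0.55 with ASH was 7.12 ± 0.80 (SE, edgeR adjusted p = 0.00136) after normoxia and 4.77 ± 0.58 (SE, adjusted p = 0.00838) after CMIH. That of 3F39.53 was 3.14 ± 0.39 (SE, edgeR adjusted p = 0.00240) and 2.17 ± 0.36 (SE, adjusted p = 0.0443). The difference between the rearing conditions was -2.45 for 11F0.55 ± 0.98 (SE, edgeR unadjusted p = 0.0194, adjusted p = 1) and -1.01 for 3F39.53 ± 0.50 (SE, unadjusted p = 0.0567, adjusted p = 1), and neither passed over all transcripts. For 11F0.55 the fold changes and their difference rest on 7 reads in the normoxia-reared controls and 24 in the CMIH-reared ones.

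The other 8 transcripts in these lists have no description. Of the 4 called by edgeR after normoxia and not after CMIH, 1F21.30 and 19F15.56 had log2 fold changes of 2.65 and 2.90 after normoxia and of 2.02 and 2.15 after CMIH, where DESeq2 called both. Transcript 3F16.80 had a log2 fold change of 2.64 with ASH after normoxia and -0.81 ± 0.75 (SE) after CMIH, and 18F11.49 had 2.31 and 0.27 ± 0.56 (SE). Their difference between rearing conditions was -3.50 ± 0.93 (SE, edgeR unadjusted p = 0.000961) and -1.93 ± 0.72 (SE, edgeR unadjusted p = 0.0128), both with an adjusted p of 1. After ASH, 3F16.80 held 60.3, 44.5 and 52.6 CPM in normoxia-reared GB, 0, 39.1 and 55.3 CPM in CMIH-reared GB, 69.7, 96.5 and 66.3 CPM in normoxia-reared HU and 0, 26.8 and 0 CPM in CMIH-reared HU. In HU the groups did not overlap, and in GB they did. In the controls, 3F16.80 had 7 reads (median 8.80 CPM) after normoxia and 35 reads (median 42.3 CPM) after CMIH. Its fold changes and their difference thus rest on few control reads and on a control level that also differed by rearing. Of 18F11.49 the controls held 18 reads after normoxia and 21 after CMIH. The 4 called by edgeR after CMIH and not after normoxia, 1F26.8, 98F0.38, 26F14.45 and 16F2.79, had positive log2 fold changes from 1.87 to 2.69 there and from 1.18 to 2.03 in normoxia-reared samples, where DESeq2 called all 4.

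**Figure D2:**
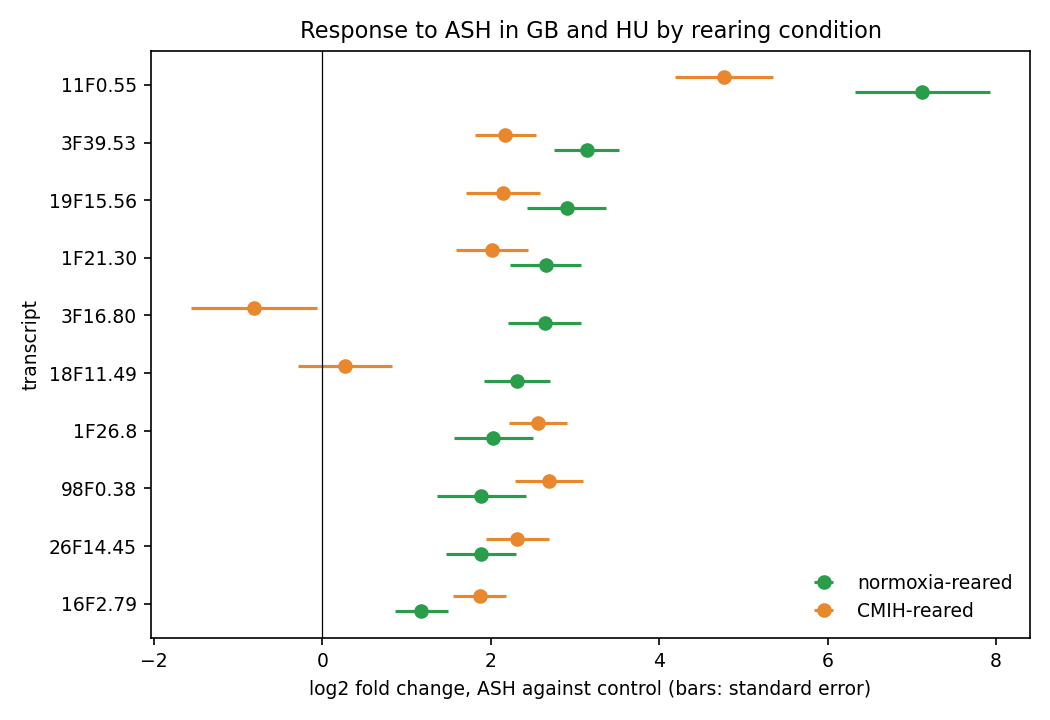
Log2 fold change of ASH over control in GB and HU for the 10 transcripts called in either rearing condition. Points are edgeR estimates, bars their standard errors, green normoxia-reared (12 samples) and orange CMIH-reared (12 samples). The 2 hemoglobin precursors have the longest distance from 0 under normoxia, and 3F16.80 and 18F11.49 are the transcripts whose orange points lie near or under 0.

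Across all transcripts, no difference by rearing in the 12 ASH samples passed the test. With clone as a block, 0 of 6022 transcripts had an adjusted p under 0.05 in edgeR (0%), and DESeq2 also gave 0. At an unadjusted p under 0.05 there were 231 transcripts (3.84%) in edgeR and 143 in DESeq2. Of the 231, 133 were higher (2.21%) and 98 lower (1.63%) after rearing in CMIH, and the median log2 fold change over all 6022 was -0.03.

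The 6 lowest p-values in each direction were taken among transcripts with the same sign in both clones and at least 60 reads. Agreement in sign between the clones is thus set by this choice. Those higher after CMIH had few or no reads in normoxia-reared HU. Transcript 18F7.33 held 28.8, 4.45 and 14.3 CPM in normoxia-reared GB, 103, 1537 and 123 CPM in CMIH-reared GB, 4.98, 0 and 6.63 CPM in normoxia-reared HU and 137, 80.3 and 162 CPM in CMIH-reared HU. All 6 CMIH-reared samples lay above all 6 normoxia-reared ones, with a lowest value of 80.3 against a highest of 28.8 CPM. Its log2 fold change was 4.97 ± 0.80 (SE, edgeR adjusted p = 0.137).

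Transcript 5F33.85 was at 0 to 134 CPM (median 20.5) in the 6 normoxia-reared samples and at 53.5 to 3842 CPM (median 254) in the 6 CMIH-reared ones. The groups did not overlap within either clone. The log2 fold change was 4.20 ± 0.78 (SE, edgeR adjusted p = 0.206), and 2.69 without CMIH-reared GB replicate 5 (edgeR adjusted p = 0.246). Transcript 31F2.73 was at 0 to 36.7 CPM (median 8.85) after normoxia and at 26.9 to 4550 CPM (median 167) after CMIH, again without overlap within a clone, and its log2 fold change was 5.83 ± 1.08 (SE, edgeR adjusted p = 0.206). In HU both transcripts had 2 reads in the 3 normoxia-reared samples, and the ratio of CPM there was 20.3 for 5F33.85 (95% counting interval 5.03 to 177) and 16.0 for 31F2.73 (3.87 to 142).

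Transcript 21F15.70 had 2 reads in the 6 normoxia-reared samples and 139 in the CMIH-reared ones, a ratio of CPM of 80.8 (95% counting interval 21.9 to 673), and an adjusted p of 0.360 in edgeR. Without CMIH-reared GB replicate 5 the ratio was 18.1 (95% counting interval 4.48 to 159), from 23 reads. In these 4 transcripts CMIH-reared GB replicate 5 was far above the other libraries, with 1537 CPM of 18F7.33, 3842 CPM of 5F33.85, 4550 CPM of 31F2.73 and 413 CPM of 21F15.70. In the same library 5F33.77, 31F2.44 and 31F3.24, chosen after their values were seen because they lie on the contigs 5F and 31F as well, held 2889, 2049 and 537 CPM. Without replicate 5, the log2 fold change was 3.33 for 18F7.33 ± 0.46 (SE, edgeR adjusted p = 0.0354) and 3.71 for 31F2.73 ± 0.55 (SE, edgeR adjusted p = 0.0354), and both passed.

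The remaining 2 of the 6 lowest p-values with a higher level after CMIH were less tied to that library. Transcript 13F17.52 held 21.0, 40.0 and 38.2 CPM in normoxia-reared GB and 206, 74.7 and 186 CPM in CMIH-reared GB. In HU it had 0 reads after normoxia and 39.1, 13.4 and 0 CPM after CMIH, at least 2.81-fold higher when 3 reads are taken for the 3 libraries at 0. Its adjusted p was 0.341 in edgeR. Transcript 2F12.14 held 21.0, 40.0 and 47.8 against 149, 64.0 and 115 CPM in GB and 14.9, 13.8 and 13.3 against 68.4, 26.8 and 26.9 CPM in HU, without overlap in either clone. In HU these were 3, 1 and 2 reads against 7, 2 and 2, so that the separation there rests on very few reads. The log2 fold change of 2F12.14 was 1.67 ± 0.35 (SE, edgeR adjusted p = 0.355).

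The transcripts with the lowest p-values in the other direction, chosen by the same rule, had mostly smaller and more even differences. Transcript 6F31.69 held 60.3, 53.3 and 47.8 CPM in normoxia-reared and 28.4, 14.2 and 19.8 CPM in CMIH-reared GB, and 54.7, 68.9 and 66.3 against 29.3, 40.1 and 13.5 CPM in HU. Its groups did not overlap in either clone, but in HU these were 11, 5 and 10 reads against 3, 3 and 1. The log2 fold change of 6F31.69 was -1.23 ± 0.30 (SE, edgeR adjusted p = 0.495). Transcript 6F25.52 held 68.2, 75.6 and 62.1 against 35.5, 35.6 and 27.7 CPM in GB and 79.6, 82.7 and 106 against 58.6, 53.5 and 26.9 CPM in HU, again without overlap, with a log2 fold change of -0.96 ± 0.26 (SE, edgeR adjusted p = 0.525). Its HU values were 16, 6 and 16 reads against 6, 4 and 2.

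Transcript 37F5.59 was at 76.5 to 225 CPM (median 114) after normoxia and at 24.8 to 147 CPM (median 37.5) after CMIH, and 13F17.68 at 68.9 to 215 CPM (median 97.2) and at 19.5 to 80.8 CPM (median 49.7). In both the groups overlapped in HU only, and their log2 fold changes were -1.23 ± 0.32 (SE) and -1.12 ± 0.33 (SE), with adjusted p of 0.495 and 0.685 in edgeR. Transcript 13F19.27 was a GB transcript, with 136, 156 and 234 CPM after normoxia, 53.2, 81.8 and 75.1 CPM after CMIH and 2 reads in all HU samples. The sixth, 28F3.33, is described with the controls below. Over all 6022 transcripts, 14 (0.232%) were higher in all CMIH-reared samples than in all normoxia-reared samples of the same clone, in both clones, 16 (0.266%) were lower in the same sense, and 24 (0.399%) were separated in opposite directions in GB and HU. Separation in the same direction in both clones is the most extreme relabelling of the exact permutation test, with a two-sided p of 0.005. No conclusion was drawn from these counts.

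**Figure D3:**
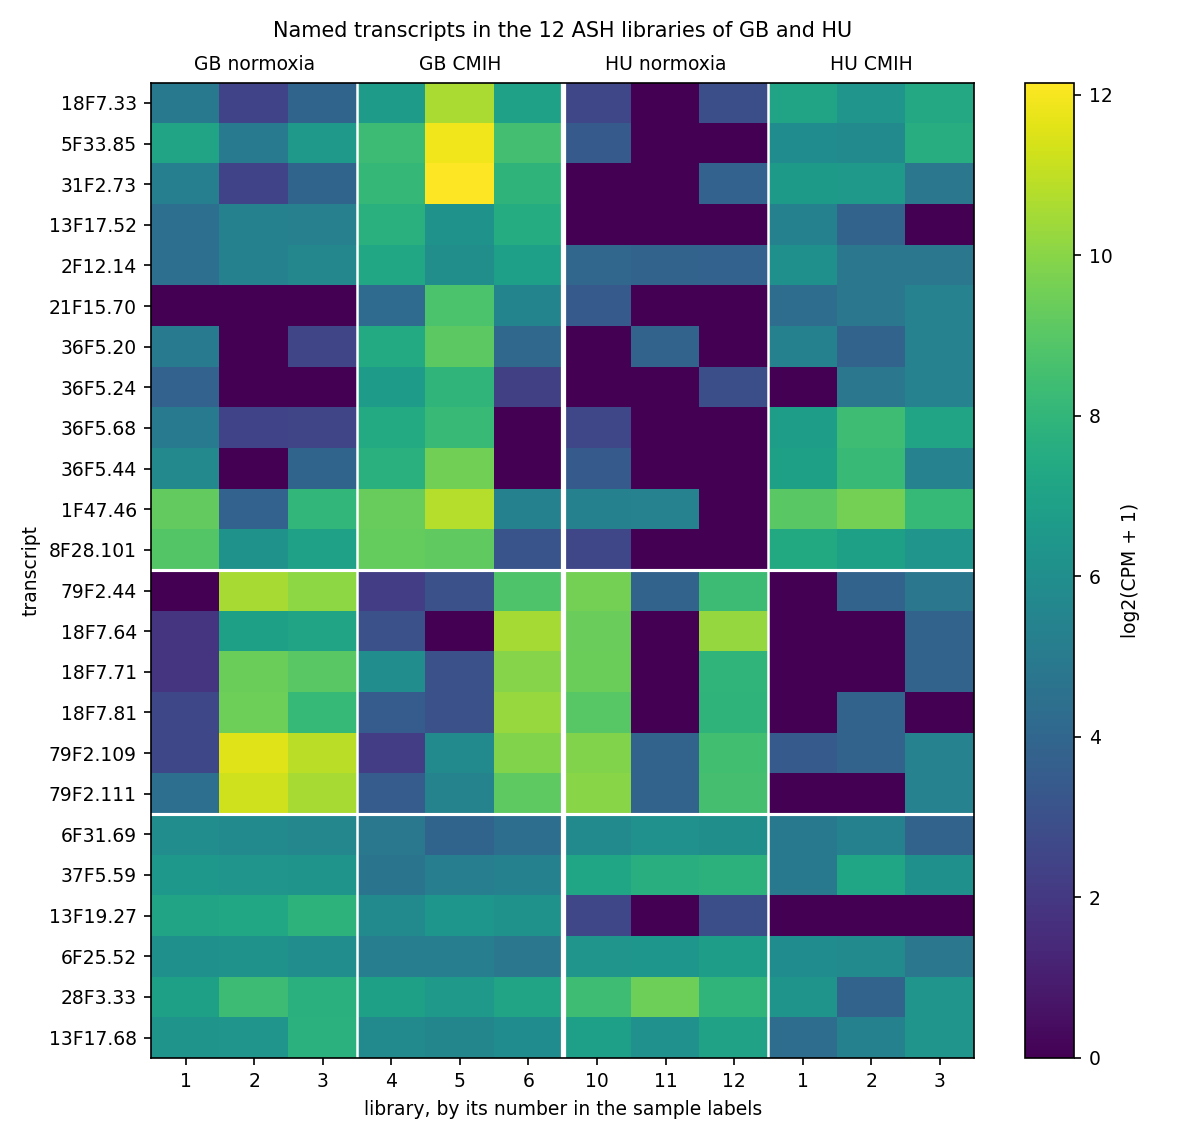
Level of 24 named transcripts (rows) in the 12 ASH libraries (columns, with their numbers in the labels), as log2(CPM + 1) by colour. The upper block holds transcripts with higher values after CMIH, the lower block those with lower values, and the middle block transcripts of the contig windows 79F2 and 18F7 whose replicates disagree. In the middle block, normoxia-reared GB replicate 1 and normoxia-reared HU replicate 11 are dark beside bright replicates of their own groups.

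Replicates of a group stood apart in whole blocks of transcripts. In CMIH-reared GB, 36F5.68 held 174 and 299 CPM in replicates 4 and 5 and 0 in replicate 6, and 36F5.44 held 206 and 761 CPM against 0. In the same replicates, 18F7.64 held 7.10 and 0 CPM against 1450.4 CPM in replicate 6, and 79F2.109 held 3.55 and 53.4 CPM against 937 CPM. Replicate 6 was thus low where its partners were high and the reverse.

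Replicates also stood apart in the normoxia-reared groups, but not in these transcripts in CMIH-reared HU. In normoxia-reared GB, 79F2.109 held 5.24 CPM in replicate 1 and 3032 and 1883 CPM in replicates 2 and 3, while 1F47.46 held 595 CPM in replicate 1 and 13.3 and 268 CPM in the others. In normoxia-reared HU, 18F7.64 held 672 and 1180.5 CPM in replicates 10 and 12 and 0 in replicate 11, and 79F2.109 held 911 and 351 against 13.8 CPM. In CMIH-reared HU no replicate held more than 13.5 CPM of 18F7.64 or 40.4 CPM of 79F2.109.

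A call on these transcripts therefore hung on single libraries. Without CMIH-reared GB replicate 6, 7 transcripts passed in edgeR, all higher after CMIH, with adjusted p from 0.0158 to 0.0439. They were 36F5.20, 36F5.24, 36F5.44, 36F5.68, 5F33.85, 18F7.33 and 31F2.73. Without replicate 4 of the same group 1 transcript passed (18F7.33, log2 fold change 5.30 ± 0.72, edgeR adjusted p = 0.0356), and without replicate 5 the 2 named above. Leaving out any of the other 9 libraries gave 0. Without normoxia-reared HU replicate 11, 6 transcripts passed in HU alone, all lower after CMIH, namely 18F7.64, 18F7.71, 18F7.81, 79F2.44, 79F2.109 and 79F2.111, with adjusted p from 0.00335 to 0.0324 in edgeR. Of the 12 transcripts of the window 79F2, 11 had a negative log2 fold change in the 12 samples and 4 an unadjusted p under 0.05, with a median of -1.80 against -0.03 over all transcripts, of which 1.63% were lower at that p. Of the 18 of the window 36F5, 9 were positive and 5 had an unadjusted p under 0.05, all higher, against 2.21% over all transcripts. In the other direction from 79F2, the log2 fold change was positive in 13 of 15 transcripts of 5F33, 9 of 9 of 31F2, 6 of 6 of 31F3 and 11 of 15 of 18F7, with 3, 2, 2 and 2 higher at an unadjusted p under 0.05. Over all transcripts, 46.9% were positive and 2.21% were higher at that p. All these windows were picked after their values were seen, and the tallies include the transcripts that led to the choice. The transcripts of a window may be neighbours or copies that share reads, so that their counts are not independent.

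Each clone was also tested alone, 3 samples against 3. In GB, 0 of 6015 transcripts passed in edgeR (0%), with 208 (3.46%) under an unadjusted p of 0.05, and in DESeq2 0 passed with 90. In HU, 0 of 5911 passed in edgeR (0%), with 209 (3.54%) under an unadjusted p of 0.05. DESeq2 called 3 transcripts in HU, all higher after CMIH. They were 1F47.46 (adjusted p = 0.000764), 36F5.68 (adjusted p = 0.00285) and 8F28.101 (adjusted p = 0.0465).

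In normoxia-reared HU, 36F5.68 had 1 read in 3 samples and in CMIH-reared HU 108, 334 and 135 CPM, a ratio of 77.7 (95% counting interval 13.3 to 3133). For 8F28.101 the values were 1 read and 166, 120 and 80.8 CPM, a ratio of 54.0 (9.02 to 2200). Transcript 1F47.46 held 39.8, 41.3 and 0 CPM after normoxia and 528, 776 and 283 CPM after CMIH. None of the 3 separated the groups in GB, where 8F28.101 held 472, 71.1 and 124 CPM after normoxia and 614, 580 and 7.90 CPM after CMIH.

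The lowest p-values toward lower levels after CMIH were those of 18F11.49 and 4F31.54 in GB and of 29F11.10 and 28F3.33 in HU. In GB, 18F11.49 held 110, 164 and 182 CPM after normoxia and 21.3 to 43.47 CPM after CMIH, with 3 reads in all HU samples. Transcript 4F31.54 held 105, 129 and 521 CPM against 7.10, 32.0 and 11.9 CPM in GB, and 930, 744 and 922 CPM against 39.1, 816 and 539 CPM in HU. In HU, 29F11.10 held 219, 344 and 199 CPM against 68.4, 40.1 and 26.9 CPM. In GB, where it held 78.6 to 272 CPM against 43.47 to 139 CPM, the groups overlapped. Toward higher levels, 66F0.86 had 1 read in normoxia-reared GB and 67.4, 10.7 and 86.9 CPM in CMIH-reared GB, a ratio of 44.0 (95% counting interval 7.49 to 1776), and no reads in HU.

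The clones did not share an overall pattern. Over the 5904 transcripts tested in both, the log2 fold changes had the same sign in 47.1%, and their Spearman rho across transcripts was -0.0046, where transcripts are not independent and the clones share no sample. Among the 198 with an unadjusted p under 0.05 in GB, 58.1% had the same sign in HU, and among the 30 with a p under 0.01, 70% did. Among the 209 with an unadjusted p under 0.05 in HU, 63.6% had the same sign in GB, and among the 51 with a p under 0.01, 76.5% did. The test of the difference between clones gave 0 of 6022 transcripts in edgeR (0%), with 213 (3.54%) under an unadjusted p of 0.05, and 0 in DESeq2 with 93.

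The lowest p-values of that test were for 23F5.12 and 21F6.67. Transcript 23F5.12 held 13.1, 17.8 and 38.2 CPM in normoxia-reared GB and no read in the 3 CMIH-reared GB samples, at least 5.67-fold lower when 3 reads are taken for the group at 0. In HU it held 59.7, 41.3 and 92.8 CPM against 58.6, 93.6 and 80.8 CPM. Transcript 21F6.67 held 31.5, 17.8 and 47.8 against 7.10, 3.56 and 15.8 CPM in GB, and 109, 138 and 113 against 264, 294 and 175 CPM in HU. Its groups were separated in opposite directions in the 2 clones, but in GB the closest samples, at 17.8 and 15.8 CPM, held 4 reads each. The difference of the log2 fold changes was 2.67 ± 0.65 (SE, edgeR unadjusted p = 0.00132, adjusted p = 1.00).

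**Figure D4:**
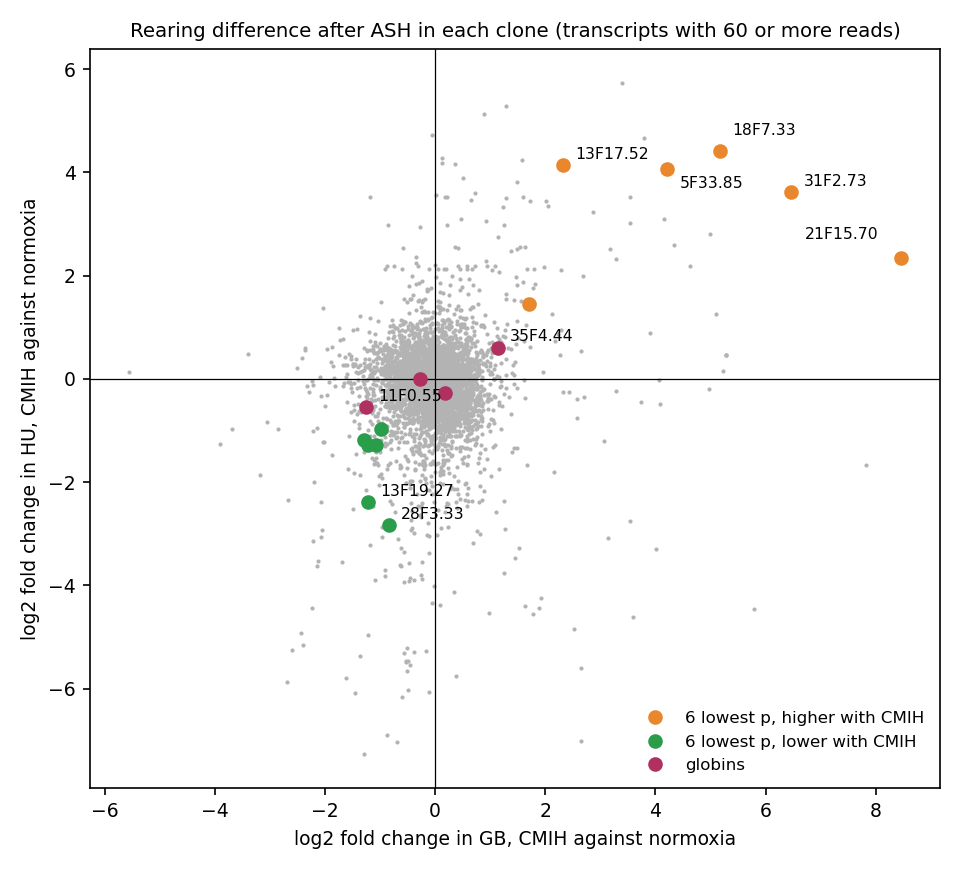
Log2 fold change of CMIH over normoxia after ASH in GB (x axis) and in HU (y axis), one grey point for each transcript with at least 60 reads over the 12 samples. Coloured points are the 4 globins and the 6 lowest p-values in each direction among transcripts chosen to have the same sign in both clones. Values of transcripts without reads in one group, such as 21F15.70 in GB and 13F17.52 in HU, depend on the prior count of the fit, and the cloud shows no common slope.

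The order of the rearing groups turned between ASH and controls in 28F3.33, and in 2F12.14 it did so in GB. These transcripts had the lowest p-values for the interaction of rearing and ASH and passed in DESeq2 but not in edgeR. Transcript 28F3.33 held 118, 325 and 210 CPM in normoxia-reared GB after ASH and 121, 92.5 and 134 CPM in CMIH-reared GB, and in HU 328, 703 and 245 against 78.2, 13.4 and 80.8 CPM. In controls the order turned, with 52.3, 32.0 and 81.2 against 394, 225 and 730 CPM in GB and 366, 106 and 33.4 against 401, 245 and 166 CPM in HU. After ASH the HU groups did not overlap and the GB groups did, and in controls it was the reverse. The log2 fold change of CMIH was -1.71 ± 0.49 after ASH (SE, edgeR adjusted p = 0.678) and 2.01 ± 0.60 in controls. The difference between them was -3.65 ± 0.76 (SE, edgeR unadjusted p = 6.1e-05, adjusted p = 0.272), and DESeq2 called it (-3.57, adjusted p = 0.0113).

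Transcript 2F12.14 had the opposite pattern. Its CMIH-reared samples lay above the normoxia-reared ones after ASH, as given above, while in GB controls they held 20.9, 16.9 and 17.5 CPM against 33.6 to 81.2 CPM after normoxia. In HU controls 3 reads were found in each group. The difference of the log2 fold changes was 2.81 ± 0.60 (SE, edgeR unadjusted p = 9e-05, adjusted p = 0.272), and DESeq2 called it as well (2.97, adjusted p = 0.0293). Over all 6037 transcripts the interaction of rearing and ASH gave 0 calls in edgeR (0%), with 160 (2.65%) under an unadjusted p of 0.05.

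In the controls as such, 0 of 6024 transcripts passed for rearing in edgeR (0%), with 175 (2.91%) under an unadjusted p of 0.05, and DESeq2 gave 0 with 101. The exposed and unexposed samples are different animals. Over the 6009 transcripts tested in both, 53.3% had the same sign of the rearing difference, with a Spearman rho across transcripts of 0.14. Of the 17 transcripts higher after CMIH in controls at an unadjusted p under 0.01, 11 were also positive after ASH, against 46.9% over all transcripts. Their median log2 fold change was 0.40, against -0.03 over all transcripts. Of the 11 transcripts lower after CMIH in controls at that p, 3 were positive after ASH, with a median of -0.15. The 4 transcripts with the highest values in CMIH-reared GB replicate 5 were not separated by rearing in controls. There 18F7.33 held 161, 0 and 0 CPM in CMIH-reared GB and 15.0, 3.20 and 81.2 CPM in normoxia-reared GB.

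**Figure D5:**
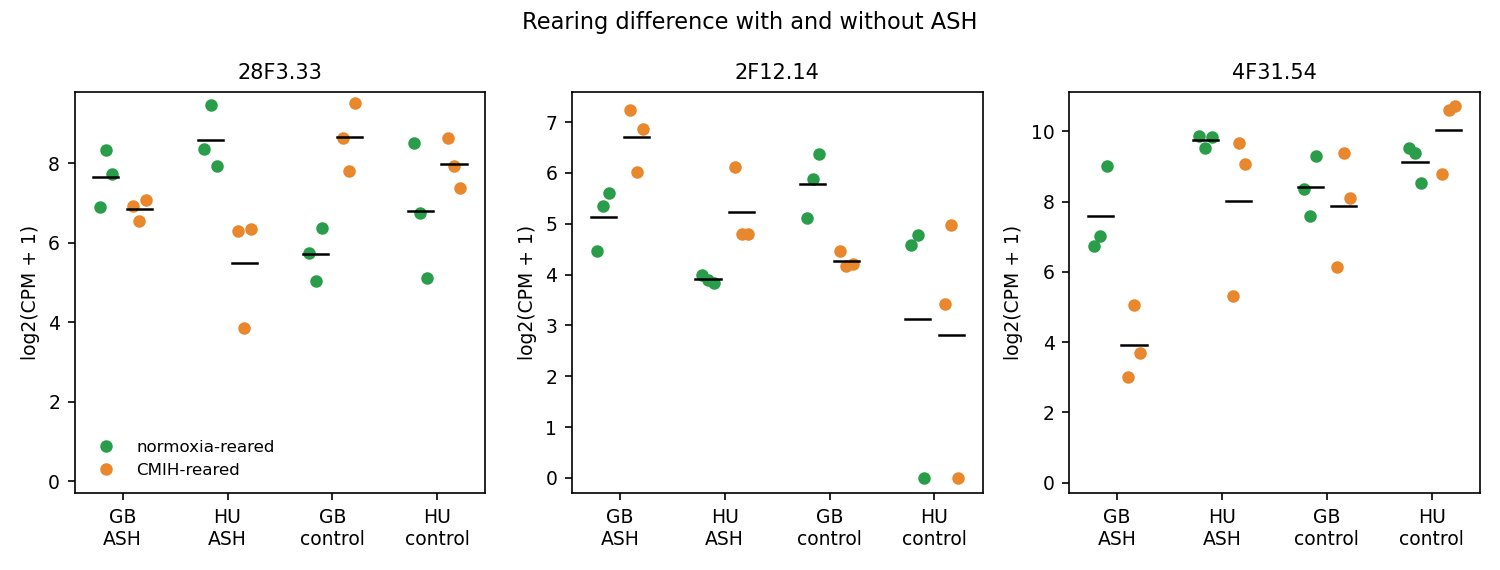
Level of 28F3.33, 2F12.14 and 4F31.54 in log2(CPM + 1) for each clone after ASH and in controls. Points are samples (3 in each group), black lines are group means, green is rearing in normoxia and orange rearing in CMIH. In 28F3.33 the orange means lie under the green ones after ASH and above them in controls, and in 2F12.14 the order is turned, with very few reads in the HU controls.

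A list of transcripts that respond to ASH was taken from FI and IL, whose samples enter none of the rearing comparisons of GB and HU. There 19 of 6050 transcripts passed in edgeR (0.314%), 18 of them higher after ASH. In the rearing comparison of GB and HU after ASH, 10 of these 18 were positive and 8 negative, with a median log2 fold change of 0.16 against -0.03 over all transcripts, of which 46.9% were positive. Of the 18, 3 were higher and 1 lower after CMIH at an unadjusted p under 0.05, against 2.21% and 1.63% over all transcripts, and none passed with adjustment. The 18 had a median of 1321 reads over the 12 samples, against 108 over all transcripts. The shares over all transcripts thus come from much lower counts, and no excess can be read from them. The lower one was the hemoglobin precursor 11F0.55, and the cytoglobin precursor 35F4.44 was among the higher ones.

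The other 2 were 0F57.61 and 0F57.62, whose counts were almost the same in every library (345 and 343 reads in normoxia-reared GB after ASH, 1101 and 1085 in CMIH-reared GB), so that reads of one may also be counted for the other. Transcript 0F57.61 held 514, 471 and 205 CPM in normoxia-reared GB after ASH and 1742, 1010 and 1288 CPM in CMIH-reared GB, without overlap. HU had 6 reads of it in all. Its log2 fold change was 1.76 ± 0.60 (SE, edgeR unadjusted p = 0.0105, adjusted p = 0.904). Among the neighbours of the hemoglobin precursors, 0 of 9 transcripts of the window of 11F0.55 and 0 of 2 of the window of 3F39.53 had an unadjusted p under 0.05 in edgeR. Over all transcripts the share was 3.84%, so that counts of 0 among so few neighbours lie near it and decide nothing about them. The lowest p-values among them were those of 11F0.53 (log2 fold change 0.97 ± 0.57, edgeR adjusted p = 1.00) and 3F39.32 (-0.25 ± 0.25, edgeR adjusted p = 1.00).

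For comparison, the same rearing contrast in the 12 ASH samples of FI and IL gave 2 of 6050 transcripts in edgeR (0.0331%), 79F2.114 with a log2 fold change of -2.53 ± 0.35 (SE, adjusted p = 0.0165) and 23F15.135 with 1.98 ± 0.32 (SE, adjusted p = 0.0494). DESeq2 called 6 others and neither of these, all lower after CMIH, among them the hemoglobin precursor 3F39.53 (-0.95, adjusted p = 0.00595), for which edgeR gave -0.96 ± 0.23 (SE, adjusted p = 0.529). The edgeR count was 0 without FI normoxia-reared replicate 1 or any of the 6 IL libraries, 1 without FI normoxia-reared replicate 3 or FI CMIH-reared replicate 4 or 6, and 8 without FI CMIH-reared replicate 5. In GB and HU, the log2 fold change was -0.41 ± 0.93 (SE) for 79F2.114 and 0.61 ± 0.45 (SE) for 23F15.135. The latter held 110, 133 and 134 CPM in normoxia-reared and 177, 256 and 209 CPM in CMIH-reared GB, without overlap, and 5 reads in all HU samples. For 3F39.53 the difference between habitat types was 0.84 ± 0.38 (SE, edgeR unadjusted p = 0.0351, adjusted p = 1). The test of the difference between habitat types gave 0 of 6050 transcripts in edgeR (0%), with 289 (4.78%) under an unadjusted p of 0.05. Its lowest p-values were those of 16F19.34 and 36F7.104 (edgeR, unadjusted p = 0.00015 and 0.000179, adjusted p = 0.542 for both). Transcript 36F7.104 had no read in the 6 normoxia-reared samples of GB and HU and 53 in the CMIH-reared ones, at least 20.5-fold higher, and at least 8.94-fold higher without CMIH-reared GB replicate 5, which held 128 CPM. Over 6022 transcripts the rearing difference had the same sign in the 2 habitat types in 52.5%, with a Spearman rho across transcripts of 0.09. DESeq2 called 2 transcripts in the test between habitat types, 16F19.34 and 5F33.85 (adjusted p = 0.0446 for both). The level of 5F33.85 was 4373 ± 1018 CPM (SD, n = 3) in normoxia-reared IL and 463 ± 413 CPM (SD, n = 3) in CMIH-reared IL, without overlap, the opposite order of GB and HU. In FI it was 2121 ± 3195 CPM (SD, n = 3) after normoxia and 1251 ± 1638 CPM (SD, n = 3) after CMIH, and the groups overlapped.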

How the data were processed

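Per the paper's methods, the authors basecalled, filtered, demultiplexed and mapped Nanopore reads with Guppy 3.6 to the *D. magna* reference transcriptome 3.0, of which they kept the longest isoform per gene. SAMtools is also listed in the submitters' processing notes. Transcripts with at least 72 reads over all samples were kept. The deposited file holds raw read counts and, beside them, RPKM that the authors scaled by each sample's total, and transcript lengths follow from both.

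Counts were tested with edgeR 4.0.16 in R 4.3.3 (TMM, quasi-likelihood F test, clone as block, Benjamini-Hochberg adjustment, threshold 0.05), and standard errors were approximated from fold change and F. DESeq2 1.42.0 was the alternative. Transcripts without reads in the samples of a test were left out. Single transcripts were tested by exact permutation within clone on log2(CPM + 1). The steps were tested on simulated counts. Intervals and floors cover counting error only. Named transcripts are the 6 lowest p-values in each direction with the same sign in both clones and at least 60 reads, the 2 lowest in each direction in each clone with at least 30 reads, the 2 lowest of each interaction test, the 4 globins named in the paper and their nearest neighbours. Others are said to be chosen after their values were seen, or passed a test. Members and lists were chosen with earlier results of these data known. None of the 6050 identifiers could be matched to the RefSeq gene table used here (0 matches). Roles are therefore given for globins only, and no sequences are printed. Python 3.11.15 was used for permutations and figures.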

Additional observations from a re-analysis of the deposited data

How the results depend on the processing

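No paired analysis was possible because the labels do not say which samples of a clone shared a replicate library, and the numbers they give are barcodes, of which the rearing groups of a clone share none. With DESeq2 in place of edgeR, the count of transcripts past an adjusted p of 0.05 went from 0 to 3 for rearing after ASH in HU, from 0 to 2 for rearing by ASH, from 2 to 6 for rearing in FI and IL, from 0 to 2 for rearing by habitat type, from 6 to 20 for ASH after normoxia, from 6 to 17 for ASH after CMIH and from 19 to 32 for ASH in FI and IL, and the log2 fold change of 0F43.50 turned to -0.0086. In FI and IL the rearing count was 1 with library sizes alone and 0 with at least 10 reads per sample on average. With library sizes alone, the transcripts of unadjusted p under 0.05 were 121 higher and 123 lower in the main comparison, against 133 and 98, and 127 and 93 for rearing by clone, against 82 and 131. Leaving out each library in turn gave 0 to 7 transcripts for rearing after ASH in GB and HU, 0 to 0 in GB, 0 to 6 in HU, 0 to 0 for rearing by clone, 0 to 2 in controls, 0 to 1 for rearing by ASH, 0 to 8 in FI and IL, 0 to 18 for rearing by habitat type, 2 to 8 for ASH after normoxia, 0 to 9 for ASH after CMIH and 14 to 26 for ASH in FI and IL. The permutation differences ran from 0.78 to 0.98 for 35F4.44 (exact permutation p from 0.01 to 0.02), from -1.11 to -0.60 for 11F0.55 (p from 0.015 to 0.125), from -0.31 to 0.00089 for 3F39.53 and from -1.24 to 0.091 for 0F43.50. The edgeR log2 fold changes ran from -0.27 to 0.0051 for 3F39.53 and from -0.48 to 0.45 for 0F43.50, so that the sign of both was not stable. The cause of these changes was not tested. TMMwsp scaling, robust dispersions, removal of the 10 most abundant transcripts, depth as a covariate and fits with all 24 samples of GB and HU or all 48 samples left the main count at 0. The depth limits the comparison: in HU, 3 reads were up to 41.3 CPM.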
